A study of Mus musculus with 6 samples.

Results

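The mRNAs of 7 cyclin-dependent kinase (CDK) inhibitors were followed in mouse primary renal tubular epithelial cells (TECs) in which the transcription factor Sox9 had been knocked down. The members were the genes named Cdkn1a, Cdkn1b, Cdkn1c, Cdkn2a, Cdkn2b, Cdkn2c and Cdkn2d among the 30315 genes listed, and all 7 were found. They form a pair of families, with 3 Cip/Kip and 4 INK4 members. The comparison asked whether genes of cell cycle arrest or senescence were higher where genes of cell division were lower. With siSox9, Cdkn1a, Cdkn1c and Cdkn2b rose, Cdkn1b and Cdkn2c fell, and Cdkn2a and Cdkn2d did not pass the test, so the inhibitors did not move as 1 block.

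CDK inhibitors are small proteins that hold back the kinases driving a cell from G1 into S phase. The Cip/Kip proteins p21 (Cdkn1a), p27 (Cdkn1b) and p57 (Cdkn1c) bind complexes of a cyclin and its CDK, above all those of Cdk2, while the INK4 proteins p16 (Cdkn2a), p15 (Cdkn2b), p18 (Cdkn2c) and p19 (Cdkn2d) bind Cdk4 and Cdk6 and keep D-type cyclins away. Active Cdk4, Cdk6 and Cdk2 phosphorylate the retinoblastoma protein, which then releases E2F factors and with them the genes of DNA replication and mitosis. In injured kidney tubules p21 is known as a p53 target induced by DNA damage, and lasting expression of p16 and p21 is widely used as a sign of senescence. Cdkn2a also encodes Arf, a protein that stabilises p53 by way of Mdm2 and is read in another frame.

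RNA sequencing covered 6 libraries of primary TECs from C57BL/6 mice, 3 transfected with siSox9 and 3 with the control siRNA siNC. Cells at 50% confluence were transfected 12 h before hypoxia/reoxygenation (H/R), in which 6 h under 1.0% O2 without glucose were followed by 18 h of reoxygenation in complete medium. All 6 libraries received H/R, so the values describe siSox9 against siNC in injured cells, and cells without H/R were not analysed here. A single siRNA sequence against Sox9 was used, and nothing in the labels says that the 3 libraries of a group came from separate animals or cultures, so that the tests measure the spread between libraries, which may be technical.

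Sox9 itself was 8.93, 8.61 and 9.07 FPKM (fragments per kilobase of exon, scaled to the reads of the library) in the 3 siSox9 libraries and 25.7, 26.5 and 25.6 FPKM in the siNC libraries. The knockdown thus left 34.2% of the siNC level (log2 fold change -1.45, SE 0.03, limma adjusted p = 7.03e-06). Depth was even, at 23893197 to 25725743 reads per library by the scale recovered from the FPKM values. The mean chi-square per gene was 1.99 to 8.07 between libraries of 1 group and 25.3 to 28.7 across groups, and none was a copy of another. Replicate 1 of siNC stood somewhat apart from the other siNC libraries (7.85 and 8.07, against 2.93 between those). The epithelial markers Krt8 and Cdh1 were high. Mean Krt8 levels were 2123 FPKM in siSox9 and 2089 FPKM in siNC libraries, and mean Cdh1 levels 160.5 and 163.8 FPKM. Of 19 tubule markers listed, 12 reached a mean of 1 FPKM. The proximal tubule phosphate transporter Slc34a1 was at 0 FPKM in 4 of the 6 libraries and at most 0.00895 FPKM in the others. Lrp2 stood at 2.06 to 2.58 FPKM, and Aqp1 and Cubn at no more than 0.515 FPKM. Umod, Slc12a1, Slc12a3 and Aqp2, markers of later nephron segments, were at most 0.133 FPKM in any library.

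The stretch just upstream of the transcription start is printed for Cdkn1a and Cdkn2b, which rose, and for Cdkn1b, which fell. These windows show how different the letters around their starts are. Those of Cdkn2c, which also fell, are not printed. RefSeq held such windows on GRCm38.p6 for 6 of the 7 members, 9 windows in all, with none for Cdkn1c. Sequences are 250 bases each, 5′ to 3′ on the strand of the gene, and end at the base before the start of the RefSeq transcript. Capitals mark matches on either strand to the letters GGGCGG (GC box, the site of Sp1), CCAAT (the site of NF-Y), TTTGAA (the CHR element of cell cycle genes) or CATGNNNNNNCATG (the paired cores of a p53 element). The last pattern was written down after the Cdkn1a window had been seen.
Cdkn1a, upstream start (chr17:29090729-29090978, plus strand): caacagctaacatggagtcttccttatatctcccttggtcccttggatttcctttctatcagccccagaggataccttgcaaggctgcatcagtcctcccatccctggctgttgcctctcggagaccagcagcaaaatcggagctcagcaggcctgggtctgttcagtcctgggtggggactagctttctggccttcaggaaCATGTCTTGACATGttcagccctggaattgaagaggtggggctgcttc
Cdkn1a, downstream start (chr17:29093519-29093768, plus strand): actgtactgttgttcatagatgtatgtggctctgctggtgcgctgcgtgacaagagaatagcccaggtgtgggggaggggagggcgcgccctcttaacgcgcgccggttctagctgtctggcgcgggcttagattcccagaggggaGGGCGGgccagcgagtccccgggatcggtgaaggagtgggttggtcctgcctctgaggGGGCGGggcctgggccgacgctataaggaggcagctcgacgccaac
Cdkn1b (chr6:134920151-134920400, plus strand): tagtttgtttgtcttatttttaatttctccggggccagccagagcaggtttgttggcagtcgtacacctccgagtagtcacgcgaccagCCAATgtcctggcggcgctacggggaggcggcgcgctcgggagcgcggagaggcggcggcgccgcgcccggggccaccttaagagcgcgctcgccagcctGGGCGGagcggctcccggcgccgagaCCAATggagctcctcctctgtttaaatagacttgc
Cdkn2b (chr4:89311033-89311282, minus strand): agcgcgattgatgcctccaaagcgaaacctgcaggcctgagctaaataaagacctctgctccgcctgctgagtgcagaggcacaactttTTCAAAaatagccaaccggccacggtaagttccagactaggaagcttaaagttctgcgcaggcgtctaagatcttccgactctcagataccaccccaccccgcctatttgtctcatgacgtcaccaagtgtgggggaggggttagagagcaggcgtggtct

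The window of the upstream Cdkn1a start held the p53 pattern, beginning 48 bases before that start, a pattern found in 161 of 32851 mouse windows of the same length (0.490%). That of the downstream Cdkn1a start held 2 GC boxes, which 32.7% of all windows hold at least once. Cdkn1b had 1 GC box and 2 CCAAT boxes (CCAAT occurs in 33.9% of windows), whereas Cdkn2b had neither and carried 1 CHR element on the opposite strand (16.0% of windows). Among the windows not printed, 3 GC boxes stood before 1 start of Cdkn2c, 3 before Cdkn2d and 2 before 1 start of Cdkn2a. An E2F pattern, spelled TTTGGCG or TTTCGCG or TTTCCCG and present in 4.57% of windows, was found before 1 start of Cdkn2c and 1 start of Cdkn2a and before none of the other 4 members with a window. None of the 9 windows held ACAATG or ACAAAG or ACAATA, letters typical of SOX sites that 30.5% of all windows contain. The GC content of the 9 windows ran from 42.8 to 78.4%. Most of them exceeded the median of 52.4% over all windows, and the shares given here are not matched for GC content. These matches describe letters only and say nothing of whether a factor was bound.

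**Figure D1:**
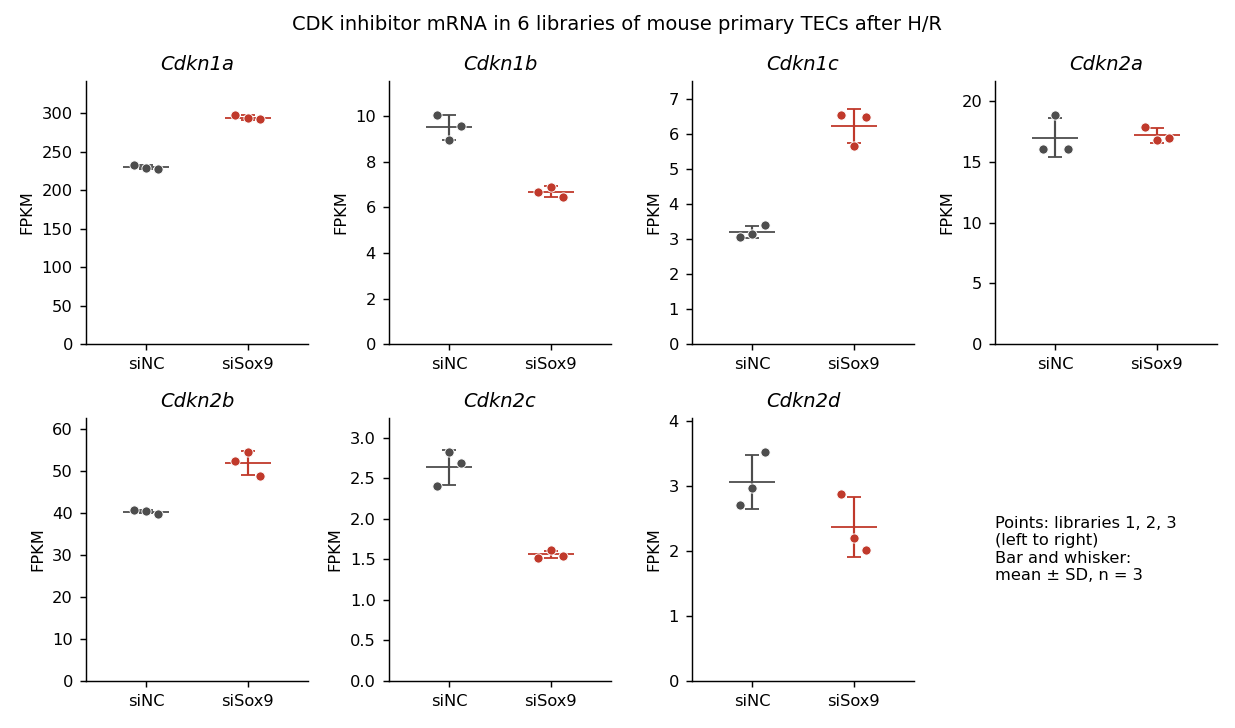
FPKM (vertical axes, from 0) of the 7 CDK inhibitors in siNC and siSox9 libraries. Points are the 3 libraries of each group and bars with whiskers the mean ± SD (n = 3); the groups are apart for Cdkn1a, Cdkn1b, Cdkn1c, Cdkn2b and Cdkn2c, and overlap for Cdkn2a and Cdkn2d.

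All 7 members reached the minimum mean of 1 FPKM and entered the test, and 5 of them passed it (Benjamini-Hochberg adjusted p under 0.05 over 12009 genes). Over all genes tested, 30.4% passed. Of the members 3 were higher with siSox9, against 12.8% of all genes, and 2 were lower, against 17.6%. The groups did not overlap for 5 members, which held for 46.3% of all genes. Each family was itself split, since Cip/Kip had 2 members higher and 1 lower, and INK4 had 1 higher, 1 lower and 2 that did not pass. In each case fewer cells making an mRNA and less mRNA per cell cannot be told apart in such bulk libraries.

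Cdkn1a encodes p21, the broad inhibitor through which p53 halts the cell cycle (ENSMUSG00000023067, chr17:29090979-29100722 on GRCm38, plus strand). It was measured at 297.3, 294.2 and 292.0 FPKM with siSox9 and at 232.7, 228.3 and 227.9 FPKM with siNC. Every siSox9 library lay above every siNC library, with a gap far wider than the spread inside either group. The means were 294.5 ± 2.67 and 229.6 ± 2.68 FPKM (SD, n = 3), 1.28-fold higher with siSox9. The log2 fold change, on log2(FPKM + 1) as in all that follow, was 0.36 (SE 0.03, limma adjusted p = 0.000192). The added 1 shrinks the changes of scarce mRNAs more than those of abundant ones. With 0.1 in its place Cdkn1a stayed at 0.36, while Cdkn2c went from -0.50 to -0.72. For Cdkn1a the exact two-sided permutation test gave p = 0.1, the smallest value that 3 against 3 libraries allow. The change was modest in size, rank 272 among the 1532 genes that rose, yet it fell on an mRNA whose level exceeded that of 98.97% of the genes tested. In the GENCODE M21 gene model the Cdkn1a exons share 273 bases, 7.68% of their length, with AC167363.2 on the other strand. Whether the counting used strand is not given in the sources used here.

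Cdkn1c encodes p57, a growth-limiting inhibitor that is imprinted and expressed from the maternal allele (ENSMUSG00000037664, chr7:143458339-143461050, minus strand). Its FPKM values were 6.52, 5.66 and 6.49 with siSox9 and 3.06, 3.15 and 3.39 with siNC. The groups were well apart, and the lowest siSox9 library stood above the highest siNC library. This was the steepest change in the family, from 3.20 ± 0.173 to 6.22 ± 0.488 FPKM (SD, n = 3), 1.94-fold (log2 fold change 0.78, SE 0.06, limma adjusted p = 0.000234), and rank 22 among the 1532 genes that rose. The exact permutation p was 0.1. The counts behind it were low, with 293 to 342 reads in siSox9 and 155 to 172 reads in siNC libraries. A stretch of 625 bases, 30.7% of its exons, is shared with Gm44732 on the opposite strand, which was listed at no more than 0.0634 FPKM in any library.

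Cdkn1b encodes p27, the inhibitor that holds Cdk2 in resting cells and is mostly set by degradation (ENSMUSG00000003031, chr6:134920401-134925513, plus strand). It went the other way from both of its relatives. The siSox9 libraries held 6.68, 6.91 and 6.44 FPKM and the siNC libraries 10.03, 8.95 and 9.56 FPKM. No siSox9 library reached the lowest siNC library. Its mean fell from 9.51 ± 0.542 to 6.68 ± 0.238 FPKM (SD, n = 3), to 70.2% of siNC (log2 fold change -0.45, SE 0.05, limma adjusted p = 0.000748, exact permutation p = 0.1).

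The opposite shifts changed the make-up of the Cip/Kip family. The ratio of Cdkn1a to Cdkn1b FPKM ran from 42.6 to 45.4 in siSox9 libraries and from 23.2 to 25.5 in siNC libraries. For Cdkn1c to Cdkn1b the ratio was 0.819 to 1.01 with siSox9 and 0.305 to 0.355 with siNC. Thus p57 mRNA, well below p27 mRNA in siNC cells, was about level with it in siSox9 cells. Cdkn1a so outweighed the others that the summed Cip/Kip level was higher in all 3 siSox9 libraries, at 304.9 to 310.5 against 240.4 to 245.8 FPKM.

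Among the INK4 genes, Cdkn2b rose. It encodes p15, known as the INK4 member induced by TGF-β through Smad factors (ENSMUSG00000073802, chr4:89306289-89311032, minus strand). Its FPKM values were 52.4, 54.6 and 48.8 with siSox9 and 40.7, 40.4 and 39.9 with siNC. The siSox9 libraries scattered more than the siNC libraries and were still all higher. The means were 51.9 ± 2.90 and 40.3 ± 0.412 FPKM (SD, n = 3), a 1.29-fold rise (log2 fold change 0.36, SE 0.04, limma adjusted p = 0.00127, exact permutation p = 0.1).

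Cdkn2c fell. It encodes p18, an INK4 protein known as a target of E2F factors (ENSMUSG00000028551, chr4:109660876-109667189, minus strand). The siSox9 libraries had 1.52, 1.61 and 1.54 FPKM and the siNC libraries 2.40, 2.82 and 2.68 FPKM. The ranges were apart, although this was the least abundant member, with 99 to 110 reads in siSox9 and 160 to 183 reads in siNC libraries. Its mean of 1.56 ± 0.0485 FPKM was 59.2% of the siNC mean of 2.63 ± 0.215 FPKM (SD, n = 3; log2 fold change -0.50, SE 0.06, limma adjusted p = 0.00138, exact permutation p = 0.1). The ratio of Cdkn2b to Cdkn2c was 31.6 to 34.5 with siSox9 and 14.3 to 17.0 with siNC.

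Cdkn2a lies next to Cdkn2b on the same strand (ENSMUSG00000044303, chr4:89274471-89294653), and its gene-level value sums the p16 and Arf transcripts. It stood at 17.9, 16.8 and 16.9 FPKM with siSox9 and at 16.1, 18.8 and 16.1 FPKM with siNC. The ranges overlapped almost entirely, because siNC replicate 2 was the highest of the 6 libraries. The means of 17.2 ± 0.619 and 17.0 ± 1.59 FPKM (SD, n = 3) gave a log2 fold change of 0.02 with a 95% interval of -0.13 to 0.17 (limma adjusted p = 0.846, exact permutation p = 1). A change of p16 hidden by an opposite change of Arf cannot be seen in such a sum.

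Cdkn2d encodes the INK4 protein p19 (ENSMUSG00000096472, chr9:21288410-21291407, minus strand). Values were 2.89, 2.202 and 2.02 FPKM with siSox9 and 2.71, 2.97 and 3.53 FPKM with siNC. The ranges overlapped through siSox9 replicate 1, which lay above siNC replicate 1. The means of 2.37 ± 0.458 and 3.07 ± 0.417 FPKM (SD, n = 3) differed by a log2 fold change of -0.28 with a 95% interval of -0.54 to -0.01, which did not pass after adjustment (limma adjusted p = 0.105, exact permutation p = 0.2). Without siSox9 replicate 1 the value was -0.38 and passed (limma adjusted p = 0.0352), so the call rested on that library. The gene had 76 to 138 reads per library, and its interval was the widest of the 7 members.

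The calls of the 5 members that passed did not hang on siNC replicate 1, the library that stood apart. Without it the log2 fold change was 0.37 for Cdkn1a, 0.76 for Cdkn1c and 0.36 for Cdkn2b, -0.42 for Cdkn1b and -0.55 for Cdkn2c. The highest limma adjusted p among these 5 was 0.00304, for Cdkn2b.

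**Figure D2:**
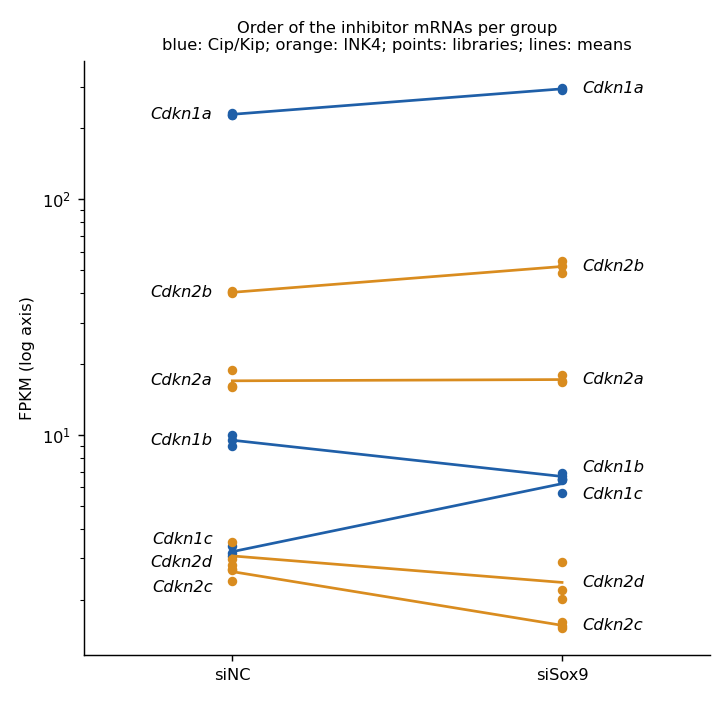
Order of the 7 inhibitor mRNAs by FPKM (vertical log axis) in siNC and siSox9 libraries. Points are libraries, lines join the group means, blue marks Cip/Kip and orange INK4 genes. Cdkn1a, Cdkn2b and Cdkn2a lead in both groups, and the line of Cdkn1c climbs to that of Cdkn1b with siSox9.

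FPKM is per length of transcript, so levels of the members can be set side by side. In both groups the order of the means was Cdkn1a, Cdkn2b, Cdkn2a, Cdkn1b, Cdkn1c, Cdkn2d and Cdkn2c. The shortest exon length in the search that fitted the Cdkn1a values was 2223 bases, against 3553 bases in GENCODE M21. The place of Cdkn1a on this scale thus depends on the gene model used. Cdkn1a alone made 77.0 to 78.0% of the summed inhibitor FPKM in siSox9 libraries and 74.7 to 75.6% in siNC libraries. The neighbours whose ranges met were Cdkn1b and Cdkn1c in the siSox9 libraries (means 1.07-fold apart), and Cdkn1c with Cdkn2d (1.04-fold) and Cdkn2d with Cdkn2c (1.17-fold) in the siNC libraries. All others in this order were apart in every library. The sum of the 7 was 374.2 to 385.2 FPKM with siSox9 and 303.0 to 307.7 FPKM with siNC.

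For each member that passed, the tested genes nearest in pattern were found by the root mean square distance of centred log2 values over the 6 libraries, a likeness that here follows mainly the size of the group difference. Nearest to Cdkn1a were Clint1 (distance 0.00854), Krt7 and B4galt7. Ifnar1 (0.0151), Wrb and Esrp1 were nearest to Cdkn1b. For Cdkn1c they were Il1rl1 (0.0479), Nqo1 and Il18rap. Cdkn2b ran closest to Rragd (0.0162), Aacs and Ppp1r9b, and Cdkn2c to Myl9 (0.0189) and Ckap2.

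The targets of the inhibitors, the G1 cyclins and CDKs, moved down or did not pass. Of 13 such genes 6 fell and the other 7 did not pass (limma; median log2 fold change -0.09, against -0.01 over all genes tested), which makes 46.2% lower, against 17.6% of all genes. Cdk4, the main partner of INK4 proteins, was 75.5, 74.2 and 74.8 FPKM with siSox9 and 87.1, 88.0 and 87.0 FPKM with siNC (log2 fold change -0.22, limma adjusted p = 0.00104). Its relative Cdk6 overlapped between groups (17.4 to 18.3 and 17.7 to 18.5 FPKM, log2 fold change -0.03). Cdk2, the main target of p21 and p27, was lower with siSox9, at 4.60 to 5.00 against 5.35 to 5.91 FPKM (-0.19, limma adjusted p = 0.0255), but lost its call in 7 of 14 alternative analyses.

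Among the cyclins of this list, the E-type cyclins that act late in G1 and Ccna2 of S phase had the most negative values. Ccna2 fell from 10.9 ± 0.524 to 6.05 ± 0.115 FPKM and Ccne1 from 9.21 ± 1.398 to 5.52 ± 0.148 FPKM (SD, n = 3). Ccne2 (log2 fold change -0.31) and the D-type cyclin Ccnd3 (-0.23) fell too. Not plotted but on the same list, Cdk7 and Cdc25a had values of 0.07 and 0.02 and did not pass. The other D-type cyclins, which carry growth signals to Cdk4 and Cdk6, did not pass, with Ccnd1 at -0.09 and Ccnd2 at -0.05 on the log2 scale. Ccnd1 was abundant throughout, 177.8 to 187.1 FPKM with siSox9 and 191.7 to 196.5 FPKM with siNC, and its groups did not overlap.

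Sums of inhibitor and kinase mRNAs were set against each other, though they are carried mainly by Cdkn1a, Cdkn2b and Cdk4. The summed Cip/Kip level over the summed Cdk2, Cdk4 and Cdk6 level was 3.14 to 3.18 in siSox9 libraries and 2.14 to 2.23 in siNC libraries. The summed INK4 level over that of Cdk4 and Cdk6 was 0.752 to 0.812 with siSox9 and 0.591 to 0.610 with siNC. These are ratios of mRNA per length and do not give the numbers of protein molecules.

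**Figure D3:**
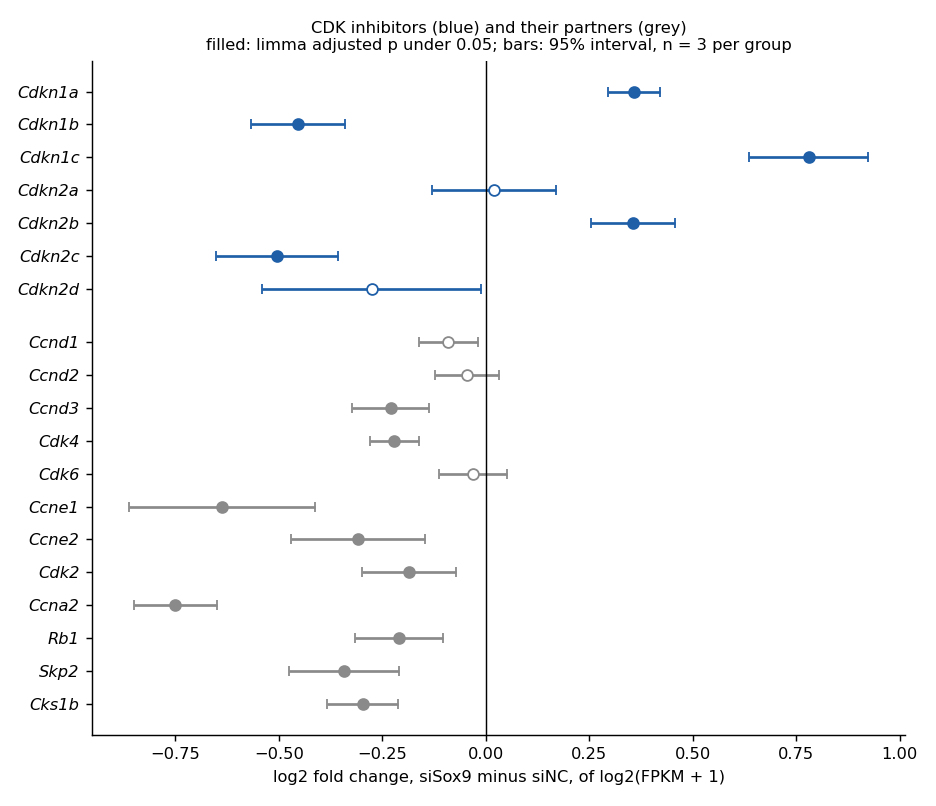
Log2 fold change of log2(FPKM + 1), siSox9 minus siNC (horizontal axis), of the 7 inhibitors (blue) and of cyclins, CDKs, Rb1, Skp2 and Cks1b (12 genes, grey), with 95% intervals (n = 3 per group). Filled points passed the limma test at an adjusted p under 0.05; the inhibitors lie on both sides of 0, and these 12 partners lie below it.

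Downstream of the kinases, 8 of 20 genes of the pocket proteins, E2F factors and their DREAM complex fell and the other 12 did not pass (limma; 40% lower, against 17.6% of all genes, median -0.15). E2f8 and E2f7, repressive E2F factors, had log2 fold changes of -0.54 and -0.43. Rbl1, a relative of the retinoblastoma protein, fell by 0.40 and Mybl2, which drives mitotic genes, by 0.39. Rb1 itself went from 8.30 ± 0.246 to 7.04 ± 0.369 FPKM (SD, n = 3; log2 fold change -0.21, limma adjusted p = 0.0129), a call that was lost when the FPKM were rescaled to TPM.

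All 38 genes of a list of DNA replication and mitosis genes fell, against 17.6% of all genes tested. Their log2 fold changes ran from -1.09 to -0.25, with a median of -0.62 (-0.01 over all genes). The list was chosen with earlier results of these data known. Rrm2, which makes deoxynucleotides, was 23.1, 20.96 and 23.9 FPKM with siSox9 and 47.9, 48.9 and 51.6 FPKM with siNC. The proliferation marker Mki67 went from 12.5 ± 0.501 to 6.90 ± 0.254 FPKM (SD, n = 3; log2 fold change -0.78). Cdc20 and Plk1, both acting in mitosis, had values of -0.86 and -0.82. All 38 kept their call in 13 of 14 alternative analyses, and in the remaining 1, limited to genes of at least 5 FPKM, the 28 that stayed in the test kept theirs.

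The fall of the division genes was shared by every siSox9 library, and so was the rise of Cdkn1a, so their ratio separated the groups. The mean ratio of Cdkn1a to Mki67 FPKM was 42.7 with siSox9 and 18.3 with siNC, and the lowest siSox9 library (41.5) stood above the highest siNC library (19.1). Cdkn1b and Cdkn2c, also classed as arrest genes, fell along with the division genes. Hence the answer to the question of the comparison differed by member: 3 of 7 inhibitors were higher where the 38 division genes were lower, 2 were lower with them, and 2 did not pass.

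Several genes that set inhibitor protein levels were measured as well, and of 19 partners of turnover and assembly 3 rose and 5 fell (15.8% and 26.3%, near the 12.8% and 17.6% of all genes, median -0.05). Skp2, the F-box protein that marks p27 for degradation, was 1.68, 1.72 and 1.89 FPKM with siSox9 and 2.46, 2.44 and 2.62 FPKM with siNC (log2 fold change -0.34, limma adjusted p = 0.00455). Its cofactor Cks1b (-0.30) and the scaffold Cul1 (-0.36) fell too. The ratio of Cdkn1b to Skp2 mRNA overlapped between groups (3.41 to 4.03 with siSox9 and 3.65 to 4.09 with siNC). Rnf123, which degrades p27 in G1, was higher (0.18), as was Ddb1 (0.15), part of the ligase that removes p21 during replication.

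Among 33 transcriptional regulators of the inhibitors, 3 rose and 9 fell (9.09% and 27.3%, against 12.8% and 17.6% of all genes, median -0.05). Trp53, the gene of p53, was 66.5, 66.0 and 66.4 FPKM with siSox9 and 60.9, 59.6 and 60.5 FPKM with siNC, a small rise (log2 fold change 0.13, limma adjusted p = 0.0083). Smad3, which carries the TGF-β signal to Cdkn2b, rose by 0.26, while its partner Smad4 fell by 0.11, a call kept in 4 of 14 alternatives. Foxo1, an activator of Cdkn1b, was higher by 0.17 but lost its call in 8 of 14 alternatives, whereas its relative Foxo3 fell by 0.22 and kept its call in 13 of 14. Id1, Id3 and Id2, factors known to hold back Cdkn1a and Cdkn2a, fell by 0.53, 0.36 and 0.31. Klf4, an activator of Cdkn1a, fell by 0.32 and kept its call in 8 of 13 alternatives.

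Other p53 targets leaned the way of Cdkn1a, with 12 of 32 higher and 3 lower (median 0.04). That makes 37.5% higher and 9.38% lower, against 12.8% and 17.6% of all genes. Without siSox9 replicate 1, 9 were higher and 1 lower, and without siSox9 replicate 2, 8 were higher and 2 lower. Btg2, an antiproliferative gene, was 114.8, 116.8 and 110.7 FPKM with siSox9 and 67.5, 65.5 and 67.1 FPKM with siNC (log2 fold change 0.77). Ei24 (0.34), the death gene Bax (0.28), the DNA repair gene Xpc (0.26) and Mdm2 (0.18), which degrades p53, rose as well. Apaf1 (-0.27), Sesn1 (-0.23) and Eda2r (-0.20) fell, of which Sesn1 kept its call in 5 of 13 alternatives and Eda2r in 8 of 14. A further 17 targets did not pass, among them Ccng1 (-0.03) and Zmat3 (-0.04). Cdkn1a, at 0.36 on the same scale, stood between Ei24 and Btg2.

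**Figure D4:**
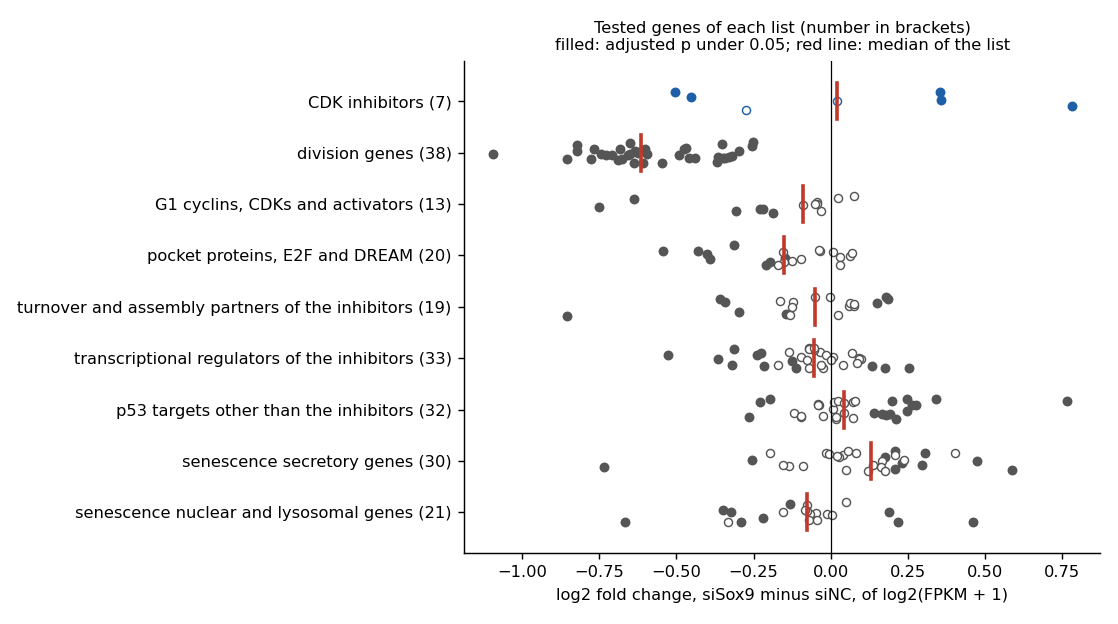
Log2 fold change of log2(FPKM + 1), siSox9 minus siNC (horizontal axis), of each tested gene (point) in 9 lists, with the number tested in brackets and the list's median as a red line. Filled points passed the limma test; the division genes are all filled and left of 0, whereas the CDK inhibitors, the p53 targets and both senescence lists have filled points on both sides.

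Senescence was read from a pair of lists besides the inhibitors. Of 30 tested genes of the senescence-associated secretory phenotype, the set of factors senescent cells release, 8 rose and 2 fell (26.7% and 6.67%, against 12.8% and 17.6% of all genes, median 0.13). Csf1, a macrophage growth factor, went from 106.3 ± 3.50 to 160.4 ± 5.84 FPKM (SD, n = 3; log2 fold change 0.59). The chemokine Cxcl1 (0.47) and the cytokine Tnf (0.29) rose, from siNC means of 1.26 and 1.32 FPKM. Fn1, the matrix protein fibronectin, fell by 0.74. Igfbp7 fell by 0.25, a call kept in 5 of 14 alternatives. Il6, a defining cytokine of the phenotype, was at most 0.0853 FPKM and was not tested. The count of genes that passed on this list changed with the analysis, from 5 without a filter on low values to 16 on recovered reads.

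The nuclear and lysosomal marks of senescence included 3 of 21 genes higher and 6 lower (14.3% and 28.6%, against 12.8% and 17.6% of all genes, median -0.08). Lmnb1, the nuclear lamin whose loss marks senescent cells, was 28.1, 26.2 and 24.7 FPKM with siSox9 and 31.8, 33.9 and 35.6 FPKM with siNC (log2 fold change -0.35, limma adjusted p = 0.00479). The chromatin proteins Hmgb2 (-0.67) and Hmgb1 (-0.32) fell. Glb1, the lysosomal galactosidase behind the common senescence stain, rose by 0.19, Lamp1 by 0.22 and Hexa by 0.46. Bhlhe40, a clock and stress factor, fell by 0.29. Cdkn2a, the inhibitor most tied to senescence, had the smallest change of the 7.

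Markers of other kidney and tissue cells were summed per library. Fibroblast markers added up to 7.23 to 8.85 FPKM with siSox9 and 9.22 to 10.3 FPKM with siNC over 8 genes, of which 1, Col1a1, could be tested and did not pass (-0.20). Endothelial markers summed to 3.06 to 3.30 and 3.35 to 4.34 FPKM over 6 genes, of which 1 was tested and did not pass. Podocyte markers summed to 12.5 to 13.9 and 18.8 to 19.5 FPKM, almost wholly from Podxl and Synpo. These 2, the only ones tested, both fell (-0.57 and -0.33), where 17.6% of all genes were lower. The defining podocyte gene Nphs1 was at 0 in all 6 libraries. Macrophage markers were plainly present, at summed levels that overlapped between groups (177.8 to 196.8 FPKM with siSox9 and 178.2 to 182.5 FPKM with siNC). The complement genes C1qa and C1qb stood at 34.9 to 46.4 and 31.1 to 36.2 FPKM over the 6 libraries, Cd68 at 10.3 to 12.9 and Csf1r at 8.91 to 10.2 FPKM, with overlapping groups, while the leukocyte marker Ptprc was at no more than 0.781 FPKM. Of 7 macrophage markers tested 1 passed, the lysozyme gene Lyz2 (0.21), which makes 14.3% higher, near the 12.8% of all genes. Of 12 tested tubule markers 3 rose (25%, against 12.8% of all genes), the injury genes Lcn2 (1.03) and Havcr1 (0.18) and the kidney cadherin Cdh16 (0.36), and Havcr1 kept its call in 8 of 14 alternatives. The part of these shifts in the values of the inhibitors was not tested.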

How the data were processed

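RNA sequencing was run by Annoroad on 6 libraries. The authors deposited 1 table of FPKM per gene and library (fragments per kilobase of exon, scaled to the depth of the library). Whether cells or RNA were pooled before sequencing is not given in the sources used here. The submitters' processing notes name HISAT2 2.1.0, Bowtie2 2.2.3, TopHat2 and mm9 without roles. Of 30246 listed genes found in GENCODE M21, 28223 (93.3%) had the positions of GRCm38, so that build is used here. The counter is not given in the sources used here.

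Groups came from the sample titles. The deposited siSox9 columns do not name Sox9 and were matched to those titles as the only siRNA besides the control. FPKM were tested with limma 3.58.1 (lmFit, eBayes with a trend) in R 4.3.3 on log2(FPKM + 1), unpaired, adjusted over the 12009 genes whose mean reached 1 FPKM. Exact permutation tests used scipy 1.17.1. Whole reads were recovered with exon lengths of M21 for 27948 genes within 0.02 reads, and for 1226 more, Cdkn1a and Cdkn2b among them, with a length found by search. Scripts were tested on simulated data. The members and gene lists were chosen with earlier results of these data known. Named were the members, their direct partners and, per list and direction, up to 4 genes. Those list genes had the largest change past the threshold and no overlap of groups. Slc34a1, Krt8, Cdh1, Umod, Slc12a1, Slc12a3, Aqp1, Aqp2, Cubn, Lrp2, Il6, Ccng1, Zmat3, Col1a1, Nphs1 and Ptprc were named after their values were seen. The same holds for C1qa, C1qb, Cd68, Csf1r, Cdk7, Cdc25a, Smad4 and Foxo3. It also holds for the neighbouring and overlapping genes other than Tnfrsf23, Cars, Tssc4 and Mtap. A few genes that this rule selects are not reported here. Alternatives were another pseudocount, 2 other filters, 3 other scalings, a replicate block, voom on recovered reads and each library left out.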

Additional observations from a re-analysis of the deposited data

How the results depend on the processing

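The 5 inhibitors that passed kept direction and call in 68 of 68 alternative analyses, with log2 fold changes of 0.35 to 0.39 for Cdkn1a, -0.51 to -0.42 for Cdkn1b, 0.75 to 0.95 for Cdkn1c, 0.32 to 0.40 for Cdkn2b and -0.75 to -0.44 for Cdkn2c. The minimum of 5 FPKM gave no value for Cdkn1c, Cdkn2c and Cdkn2d. Leaving out each library in turn moved Cdkn2a between -0.0176 and 0.0915, below 0 without siSox9 replicate 1 (-0.00827), siNC replicate 1 (-0.0176) or siNC replicate 3 (-0.0153), never past the threshold. It moved Cdkn2d between -0.38 and -0.20, and the value passed only without siSox9 replicate 1. The number of genes called over the whole table was 3650, and 2431 to 3653 when a library was left out, the lowest without siSox9 replicate 2. Centring on medians turned the split from 1532 higher and 2118 lower (42.0% higher) to 1959 and 1765 (52.6% higher), and no scaling moved the median of all genes by over 0.1. Of the senescence secretory genes 10 passed, against 5 with no filter on low values and 16 by voom on recovered reads, and the cause was not tested. Of 119 list genes called, 97 kept their call under all 3 scalings and 0 changed direction in any alternative. Same-numbered libraries did not deviate together (correlations 0.06, -0.05 and 0.01), and not every library correlated best with its own number. With 3 libraries per group this check cannot show whether same-numbered libraries shared a culture or preparation. With the replicate block 3262 genes passed and no inhibitor changed its call. Reads per library were fewest for Cdkn2d (76 to 138) and Cdkn2c (99 to 183).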

Other observations

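Cdkn1c lies in the imprinted Kcnq1 cluster of chromosome 7, where 3 of 10 tested neighbours passed, about the 30.4% of all genes. Of its 10 tested neighbours 2 were higher, Tnfrsf23 (log2 fold change 0.24) and Cars (0.16), and 1 was lower, Tssc4 (-0.30), a call kept in 10 of 14 alternatives. Phlda2, imprinted in the same cluster and expressed like Cdkn1c from the maternal allele, was 1.42, 0.948 and 1.42 FPKM with siSox9 and 0.934, 1.48 and 1.22 FPKM with siNC, with overlapping groups (0.03). The long non-coding RNA Kcnq1ot1, which silences the cluster on the paternal allele, was listed at 0.210 to 0.221 FPKM with siSox9 and 0.154 to 0.182 FPKM with siNC, too low to be tested.

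Next to Cdkn2a and Cdkn2b, the metabolic gene Mtap was slightly higher with siSox9, a call kept in 9 of 14 alternatives (46.4 ± 1.52 against 42.5 ± 0.890 FPKM, SD, n = 3; log2 fold change 0.13, limma adjusted p = 0.0316). Klhl9 (0.01) and the predicted gene Gm12602 (0.18) did not pass. Thus 1 of 3 tested neighbours passed, near the 30.4% of all genes, beside log2 fold changes of 0.36 for Cdkn2b and 0.02 for Cdkn2a.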
